A study of Homo sapiens with 6 samples.

Results

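MHC class I presentation was described here through the genes HLA-B, HLA-C, HLA-E, HLA-F, B2M, TAP1, TAP2, TAPBP and PSMB10. They were chosen by name, as the symbols that had to occur in both deposited expression tables with a value in all 6 libraries. Of the 9 genes on the list, 8 were matched among the 13002 genes of the tables, and HLA-F was not analysed here. All 8 passed the filter on low values. The libraries are bulk RNA sequencing of OCI-AML2, a cell line from a human acute myeloid leukaemia, which the labels describe as an engineered leukemic stem cell line. Cells of every group were infected with lentivirus carrying a short hairpin RNA and kept for 3 days in medium with puromycin at 2.0 µg/mL. The study asked how expression changed when TAZ was knocked down with independent hairpins, TAZ shRNA1 and TAZ shRNA2. Each hairpin and the control hairpin, called scramble in the labels and GFP in the column names of the tables, had 2 libraries, lettered A and B. Whether A and B were grown as separate cultures is not stated, and p-values therefore reflect only how far these libraries spread, part of which may be technical.

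MHC class I molecules carry short peptides from inside the cell to its surface, where CD8 T cells and natural killer cells read them. A heavy chain such as HLA-B pairs with the invariant light chain beta-2 microglobulin, the product of B2M. Proteasomes cut the peptides, the TAP transporter moves them into the endoplasmic reticulum, and tapasin, the product of TAPBP, holds empty class I molecules next to the transporter. Interferons raise most of these genes in many cell types, through STAT and IRF factors at their promoters, and NLRC5 acts as a transactivator of class I genes.

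The promoter windows of HLA-B, HLA-C, B2M and TAP1 are shown. Both shRNA1 libraries lay below the control for HLA-B and HLA-C, and both shRNA2 libraries lay above it for B2M and TAP1. None of these differences passed 0.05 (limma adjusted p = 0.0674 for HLA-B, 0.207 for HLA-C, 0.281 for B2M and 0.144 for TAP1). HLA-E, the only measured class I gene that passed, had no window. TAPBP, also above the control in both shRNA2 libraries, is not printed. Each sequence holds the 250 bases before the RefSeq start site of the gene, 5′ to 3′ on the gene's own strand. Coordinates are on GRCh38.p14: chr6:31357180-31357429 on the minus strand for HLA-B, chr6:31272093-31272342 on the minus strand for HLA-C, chr15:44711267-44711516 on the plus strand for B2M and chr6:32853705-32853954 on the minus strand for TAP1. Capitals mark matches on either strand to GAANNGAAA or GAAANNGAA (cores of the interferon stimulated response element with different spacing), GGGATTCCC (an NF-kappaB site) or CCAAT (the CCAAT box bound by NF-Y).
HLA-B: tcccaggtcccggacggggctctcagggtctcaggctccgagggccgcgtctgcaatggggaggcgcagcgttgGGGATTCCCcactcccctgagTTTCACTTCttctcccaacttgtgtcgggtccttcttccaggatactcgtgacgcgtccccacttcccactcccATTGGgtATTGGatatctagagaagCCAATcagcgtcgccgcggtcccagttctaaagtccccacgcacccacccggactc
HLA-C: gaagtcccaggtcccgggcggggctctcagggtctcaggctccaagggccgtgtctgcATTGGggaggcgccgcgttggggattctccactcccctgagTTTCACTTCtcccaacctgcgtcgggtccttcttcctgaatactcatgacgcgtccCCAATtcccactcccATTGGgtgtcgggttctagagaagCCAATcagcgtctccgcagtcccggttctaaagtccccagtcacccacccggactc
B2M: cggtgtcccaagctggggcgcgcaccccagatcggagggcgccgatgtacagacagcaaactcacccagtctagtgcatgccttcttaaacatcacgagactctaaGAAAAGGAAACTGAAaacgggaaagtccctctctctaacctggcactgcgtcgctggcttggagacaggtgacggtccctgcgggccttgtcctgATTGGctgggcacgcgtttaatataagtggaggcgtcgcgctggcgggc
TAP1: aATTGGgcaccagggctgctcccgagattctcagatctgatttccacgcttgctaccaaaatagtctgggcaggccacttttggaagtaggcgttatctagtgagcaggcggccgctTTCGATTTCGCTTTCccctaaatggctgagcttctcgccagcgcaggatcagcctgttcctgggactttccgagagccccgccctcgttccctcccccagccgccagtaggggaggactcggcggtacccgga

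RefSeq windows of 300 bases (250 before and 50 after the start) were matched by symbol for 7 of the 8 measured genes, all but HLA-E. GAANNGAAA occurred in HLA-B, HLA-C and TAP2, and in 7.7% of all 35116 windows. In HLA-B the match covered bases -155 to -147 from the start, and in HLA-C it covered bases -151 to -143. GAAANNGAA, a spacing added after the windows were seen, occurred in B2M, TAP1, TAP2, TAPBP and PSMB10 and in 8.1% of all windows. B2M, TAP1 and TAPBP each held a pair of overlapping matches to it. The match in TAP2 overlapped its match to the first spacing. GGGATTCCC occurred in HLA-B alone among the 7, at bases -176 to -168, and in 0.4% of all windows. Other spellings of an NF-kappaB site were not searched, so these letters do not show that the other windows lack one. CCAAT occurred in HLA-B, HLA-C, B2M and TAP1 and in 34.6% of all windows. TTCNNNGAA, a STAT site core found in 7.7% of windows, matched only an alternative start of TAP1. TGACGTCA, the cyclic AMP response element, and CACGTG, searched for comparison, matched none of the 7 and 1.8% and 7.3% of all windows. A match describes these letters and is not evidence that a factor binds there.

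**Figure D1:**
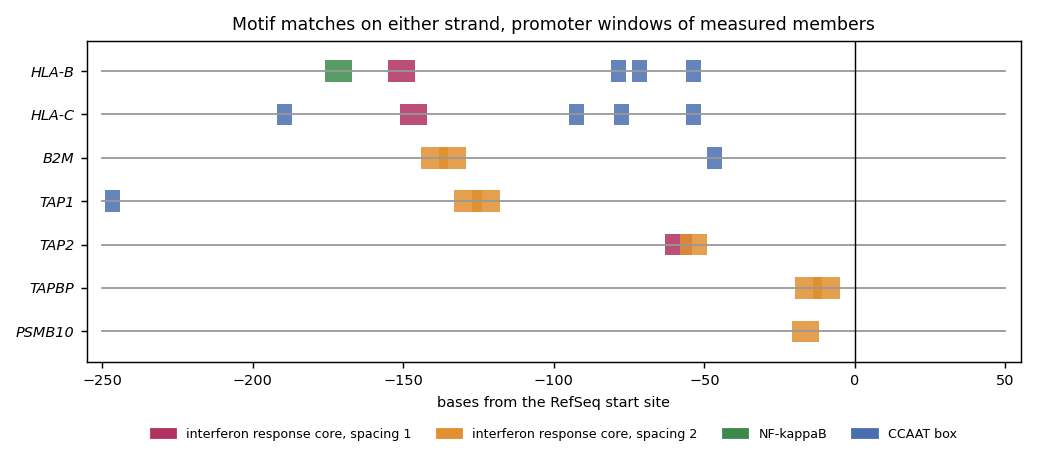
Position of each motif match, on either strand, along the promoter windows of 7 measured class I genes. The horizontal axis is the distance in bases from the RefSeq start site. Coloured boxes are matches, and only HLA-B carries GGGATTCCC, the single NF-kappaB spelling that was searched.

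Depth was even, with 18820271 to 20980538 reads in listed genes per library. TAZ (gene ID 6901), which encodes the cardiolipin-remodelling enzyme tafazzin, had 11.3 and 11.9 RPKM (reads adjusted for gene length and library depth) in control A and B. It had 4.02 and 4.10 RPKM under shRNA1 and 1.47 and 2.13 RPKM under shRNA2, so both knockdown groups lay below the control. Of 12 myeloid markers, 9 had at least 1 RPKM in every library, and 11 were in the tables. Their summed level was 1040 to 1190 RPKM in the control, 5190 to 5730 RPKM with shRNA1 and 3930 to 4690 RPKM with shRNA2, mostly through lysozyme (LYZ), which had 676 to 786 RPKM in the control and 3494 to 5236 RPKM in the knockdown libraries. Myeloperoxidase (MPO) went the other way, from 11.2 and 10.1 RPKM in the control to 5.16 and 4.63 RPKM under shRNA1 and 1.02 and 1.49 RPKM under shRNA2, while over all 6 libraries SPI1 ran from 117 to 145 RPKM and CEBPA from 103 to 147 RPKM. PTPRC, CD33, CSF3R and FLT3 were higher in every knockdown library than in both control libraries. CD14 had 2.34 and 1.17 RPKM in the control, 2.44 and 1.61 RPKM under shRNA1 and 13.4 and 7.97 RPKM under shRNA2. KIT stayed under 0.2 RPKM in every library. Erythroid markers had 0 of 6 genes in the tables, B cell markers had 4 of 6 and summed to at most 5.0 RPKM, and stromal and epithelial markers had 1 of 8 (PECAM1). T and NK cell markers had 3 of 9, summing to 37.0 to 54.1 RPKM, of which CD4 and NKG7 made up all but the CD3D value of under 1 RPKM. The part of these marker differences in the values below was not tested. In bulk RNA, fewer cells of a type and less RNA per cell cannot be told apart.

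The class I genes kept the same order of RPKM in all 6 libraries. From highest to lowest it was B2M, HLA-B, HLA-E, HLA-C, PSMB10, TAPBP, TAP1 and TAP2. No neighbouring pair in that order overlapped within any group. In the control, the light chain B2M had 979 ± 72.7 RPKM (SD, n = 2) and HLA-B had 613 ± 123 RPKM, whereas TAP1 had 13.9 ± 1.71 RPKM and TAP2 had 11.2 ± 1.5 RPKM. Reads behind a single value ran from 757 for TAP1 in control B to 26708 for B2M in shRNA2 A.

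**Figure D2:**
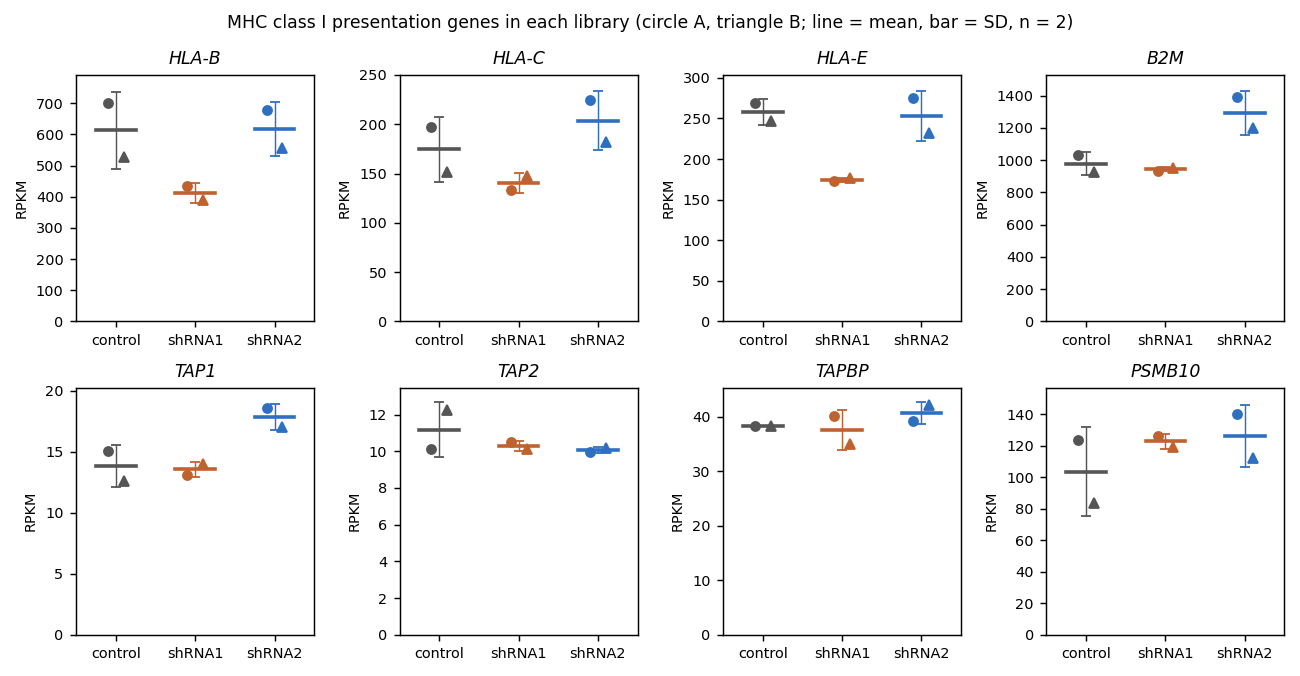
RPKM of the 8 measured class I presentation genes in each library, 1 panel per gene, with linear axes starting at 0. Circles are library A and triangles library B, lines are group means and bars are SD (n = 2). HLA-E shows tight libraries with shRNA1 (173 and 176 RPKM) below both control libraries, and TAP1 and B2M are highest with shRNA2.

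Among the heavy chains, HLA-E (gene ID 3133), a non-classical molecule that presents leader peptides to the NKG2A and NKG2C receptors of natural killer cells, had 269.6 and 247 RPKM in control A and B. It had 173 and 176 RPKM under shRNA1 A and B, and 275 and 231.5 RPKM under shRNA2 A and B. Both shRNA1 libraries lay below every other library, while the shRNA2 range enclosed the control range. HLA-E fell by 0.56 on the log2 scale with shRNA1 (SE 0.12, 95% interval -0.85 to -0.27, limma adjusted p = 0.0246), which is 0.677 times the control level. With shRNA2 its difference from control was -0.03 (95% interval -0.46 to 0.39, limma adjusted p = 0.918). The difference between the hairpins was 0.53 (95% interval 0.20 to 0.86) and did not pass the threshold (limma adjusted p = 0.0504). Without control A or control B the difference stayed 0.53, since control libraries enter only its variance. It passed in 8 of 17 alternatives, among them quantile normalization (limma adjusted p = 0.015) and median centring (limma adjusted p = 0.0481). Without shRNA1 A the HLA-E difference from control was -0.55 (limma adjusted p = 0.208) and without shRNA1 B it was -0.58 (limma adjusted p = 0.242). Of 15 alternatives 13 kept the call, counting those with 1 control library left. Fold changes here and below are of log2(RPKM + 0.5).

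HLA-B (gene ID 3106), a classical heavy chain that presents peptides to CD8 T cells, had 700.3 and 526 RPKM in control A and B. It had 435 and 388 RPKM under shRNA1, and 679.5 and 556 RPKM under shRNA2. The shRNA1 libraries were again the lowest, but the control libraries lay far apart. The difference with shRNA1 was -0.56 (SE 0.18, 95% interval -0.98 to -0.14), as large as that of HLA-E, and did not pass (limma adjusted p = 0.0674). Without control A it was -0.36 and without control B it was -0.77. With 1 control library left, the spread between control libraries no longer enters the error. Here and below such fits therefore give effect sizes only. The sign of the HLA-B difference held in all 15 alternatives. With shRNA2 the difference was 0.02 (95% interval -0.53 to 0.57), and between the hairpins it was 0.58 (95% interval 0.14 to 1.02, limma adjusted p = 0.0975).

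HLA-C (gene ID 3107), the classical heavy chain that is also the main ligand of killer-cell immunoglobulin-like receptors, had 198 and 151 RPKM in the control. It had 133 and 147.5 RPKM under shRNA1 and 225 and 182 RPKM under shRNA2. The shRNA1 libraries lay below both control libraries, though shRNA1 B lay close to control B. The difference with shRNA1 was -0.30 (SE 0.16, 95% interval -0.68 to 0.07, limma adjusted p = 0.207). Without control A it was -0.11, and without control B it was -0.50. With shRNA2 the difference was 0.23 (95% interval -0.24 to 0.70; 0.42 without control A and 0.034 without control B), and between the hairpins it was 0.53 (95% interval 0.13 to 0.93, limma adjusted p = 0.0925). That last difference stayed 0.53 without control A. It passed in 4 of 17 alternatives, among them quantile normalization (limma adjusted p = 0.0233) and removal of the gene length trend (limma adjusted p = 0.0249).

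The summed RPKM of HLA-B, HLA-C and HLA-E was 1167 and 924.5 in the control, 740.7 and 712 under shRNA1 and 1179 and 969.6 under shRNA2. The shRNA1 mean was 0.695 times the control mean, and the shRNA2 mean was 1.03 times it with overlapping libraries. HLA-E made up 24.9% ± 2.56 of this sum in control libraries (SD, n = 2), 24.04% ± 1.02 of it under shRNA1 and 23.6% ± 0.393 under shRNA2, with overlapping groups. The share of HLA-C was 16.6% ± 0.4 in control libraries, 19.3% ± 1.95 under shRNA1 and 18.9% ± 0.162 under shRNA2. No knockdown library overlapped the control in this share. Among all genes tested, 33.5% lay wholly above the control in RPKM with shRNA1 and 31.0% with shRNA2. The heavy chain sum and these shares were not tested. How the counting divided reads between class I paralogs is not given in the sources used here, so single heavy chain values are uncertain. HLA-B and HLA-C also overlap each other on the same strand in the GENCODE annotation.

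B2M (gene ID 567), the light chain shared by all class I heavy chains and several class I-like molecules, had 1030 and 928 RPKM in the control. It had 934 and 953 RPKM under shRNA1, inside the control range, and 1392 and 1197 RPKM under shRNA2, above it. The difference with shRNA1 was -0.05 (SE 0.16, 95% interval -0.42 to 0.32, limma adjusted p = 0.837). The difference with shRNA2 was 0.40 (SE 0.24, 95% interval -0.15 to 0.96, limma adjusted p = 0.281), and between the hairpins it was 0.45 (95% interval 0.05 to 0.85, limma adjusted p = 0.144). With shRNA2 B2M passed under quantile normalization (0.60, limma adjusted p = 0.0191) and after removal of the gene length trend (0.60, limma adjusted p = 0.00688), and in both of these it also passed between the hairpins (limma adjusted p = 0.021 and 0.0193). B2M RPKM over the summed RPKM of these heavy chains was 0.883 and 1.003 in the control, 1.26 and 1.34 under shRNA1 and 1.181 and 1.235 under shRNA2. All 4 knockdown libraries had a higher ratio than both control libraries. With shRNA1 the heavy chain sum in that ratio was lower, and with shRNA2 B2M was higher. This ratio and those below were chosen after the values were seen and were not tested.

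TAP1 (gene ID 6890), a subunit of the peptide transporter, had 15.1 and 12.7 RPKM in the control. It had 13.1 and 14.0 RPKM under shRNA1 and 18.6 and 17.1 RPKM under shRNA2. Both shRNA2 libraries were above all others. The difference with shRNA2 was 0.36 (SE 0.15, 95% interval 0.01 to 0.71), with a limma p of 0.0463 before and 0.144 after adjustment. With shRNA1 it was -0.03 (95% interval -0.34 to 0.29), and between the hairpins it was 0.38 (95% interval 0.08 to 0.68, limma adjusted p = 0.104). TAP1 overlaps PSMB9 and PSMB8-AS1 on the other strand, and the strand setting of the counting is not given in the sources used here, so their reads cannot be told apart with certainty.

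TAP2 (gene ID 6891), the partner subunit of TAP1, had 10.1 and 12.2 RPKM in the control, 10.5 and 10.1 RPKM under shRNA1 and 9.97 and 10.2 RPKM under shRNA2. The groups overlapped. Its differences were -0.11 with shRNA1 (95% interval -0.43 to 0.22) and -0.14 with shRNA2 (95% interval -0.49 to 0.22). The ratio of TAP1 to TAP2 RPKM was 1.49 and 1.03 in the control, 1.25 and 1.38 under shRNA1 and 1.87 and 1.68 under shRNA2. The shRNA2 libraries thus had the highest ratios.

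TAPBP (gene ID 6892), which encodes tapasin, had 38.3 RPKM in both control libraries, 40.3 and 35.0 RPKM under shRNA1 and 39.3 and 42.2 RPKM under shRNA2. Its differences were -0.03 with shRNA1 (95% interval -0.31 to 0.26) and 0.09 with shRNA2 (95% interval -0.23 to 0.41). The shRNA2 libraries lay above the control, by less than the gap between the shRNA1 libraries.

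PSMB10 (gene ID 5699), the catalytic immunoproteasome subunit that replaces PSMB7, had 124 and 83.5 RPKM in control A and B. It had 126 and 119 RPKM under shRNA1 and 140.0 and 112 RPKM under shRNA2. Control B was the lowest library, and control A lay inside the shRNA2 range. The difference with shRNA1 was 0.27 (SE 0.19, 95% interval -0.16 to 0.71, limma adjusted p = 0.323). It was 0.55 without control A (limma adjusted p = 0.000815) and -0.0074 without control B, with a range of adjusted p from 0.000815 to 0.968 over 15 alternatives. The difference with shRNA2 was 0.30 (95% interval -0.21 to 0.82, limma adjusted p = 0.378). Leaving out control A gave 0.58 and leaving out control B gave 0.021. After removal of the gene length trend PSMB10 passed with shRNA1 (0.54, limma adjusted p = 0.026) and with shRNA2 (0.50, limma adjusted p = 0.0291). Between the hairpins its difference was 0.03 (95% interval -0.42 to 0.48).

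**Figure D3:**
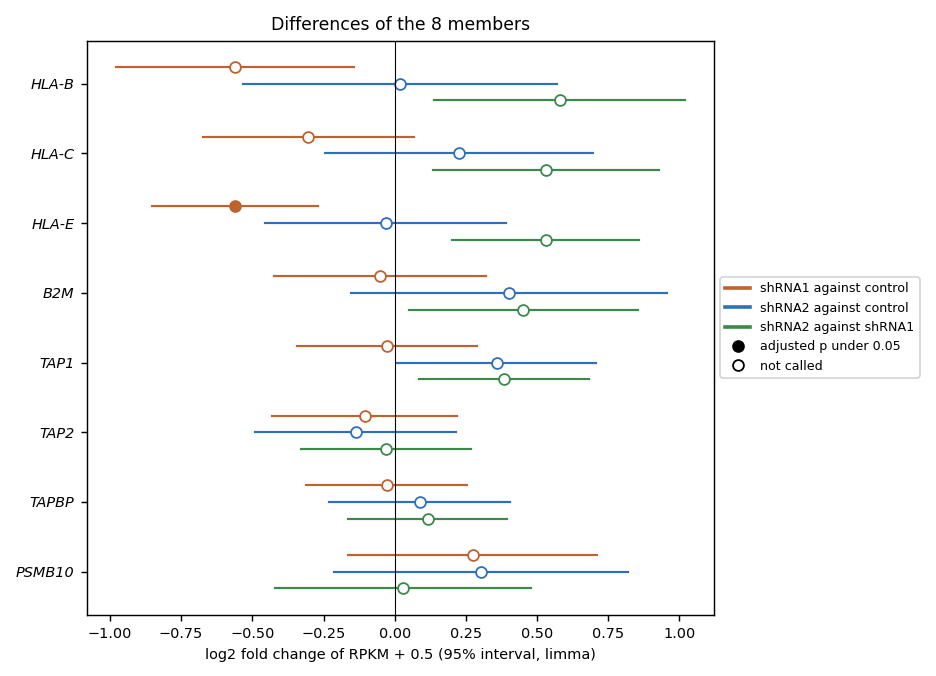
Log2 fold change of RPKM + 0.5 for the 8 measured genes in 3 comparisons, with 95% limma intervals as horizontal lines. Filled points have an adjusted p under 0.05, which only HLA-E with shRNA1 reached, and the hairpin comparison lies above 0 for the heavy chains, B2M and TAP1.

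Counted together, 1 of the 8 genes fell and 0 rose with shRNA1, beside 18.6% of the 10613 genes tested that passed limma's threshold in either direction (9.99% higher, 8.58% lower). With shRNA2, 0 of 8 passed limma's threshold, beside 15.7% of 10659 genes (8.12% higher, 7.61% lower). Between the hairpins, 0 of 8 passed limma's threshold, beside 10.9% of 10660 genes (4.78% higher, 6.1% lower). A single gene is a large step among 8, so these counts past the adjusted threshold do not set the 8 genes apart from all genes tested. At an unadjusted p under 0.05, 2 of 8 were lower and 0 higher with shRNA1, beside 17.3% and 18.8% of all genes. With shRNA2, 1 of 8 (TAP1) was higher and 0 lower at that p, beside 16.7% and 16.1%. Between the hairpins, 5 of 8 were higher with shRNA2 and 0 lower, beside 11.9% and 14.3%. In 3 of 8 genes (HLA-B, HLA-C and HLA-E) both shRNA1 libraries lay below both control libraries, as they did in 32.5% of all genes tested, and in 0 of 8 they lay above, against 33.5%. In 3 of 8 (B2M, TAP1 and TAPBP) both shRNA2 libraries lay above the control, as in 31.0% of all genes tested, and in 0 of 8 below it, against 31.1%. In 5 of 8 (HLA-B, HLA-C, HLA-E, B2M and TAP1) both shRNA2 libraries lay above both shRNA1 libraries, as in 27.4% of all genes tested, and in 0 of 8 below them, against 31.2%. The median log2 fold change of the 8 genes was -0.08 with shRNA1, 0.16 with shRNA2 and 0.42 between the hairpins, and over all genes tested it lay within 0.01 of 0 in each comparison. Both comparisons with control use the same control libraries, so their values are not independent.

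In the authors' deposited table for shRNA1, HLA-E (log2 fold change -0.57, adjusted p = 0.000169) and HLA-B (-0.57, adjusted p = 0.000152) passed 0.05 and the other 6 genes did not. The authors' deposited table for shRNA2 had B2M (0.41, adjusted p = 0.00656) and TAP1 (0.38, adjusted p = 0.0122) past 0.05. Over all genes, 35.9% and 38.8% passed 0.05 in the authors' deposited tables, more than with limma, so each of these counts is read against its own share.

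By the root mean square difference of control-centred log2(RPKM + 0.5) over the 6 libraries, the genes most like HLA-E among 10659 were EFCAB11 (0.053), PECR (0.059) and the pseudogene RPS18P9 (0.062). HLA-B ranked 30th by this measure (0.104), while HLA-C ranked 905th and B2M 4501st. Among the measured class I genes, HLA-B was thus the closest to HLA-E in these libraries.

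Of 49 further genes of the class I pathway, listed by role, 46 were in the tables and 43 passed the filter. With shRNA1, 12 rose, 2 fell and 29 did not pass, with a median log2 fold change of 0.24. Of all genes tested, 9.99% rose and 8.58% fell with shRNA1. With shRNA2, 9 rose, 0 fell (2 were lower at an unadjusted limma p under 0.05) and 34 did not pass, with a median of 0.18. Of all genes tested, 8.12% rose and 7.61% fell with shRNA2, and 16.1% were lower at that unadjusted p. Among the shRNA1 calls, 9 were lost without shRNA1 A (limma adjusted p 0.0518 to 0.189) and 11 without shRNA1 B (limma adjusted p 0.0628 to 0.422), while FCGRT, IRF8 and JAK2 passed in every alternative run for them. Removing the trend over gene length ended the shRNA1 calls of PSMB9, UGGT1, STAT2 and JAK1 (limma adjusted p 0.0512 to 0.08). The shRNA1 calls of UGGT1 and IFNGR1 were lost with no filter, that of IFNGR1 with median centring (limma adjusted p = 0.0661), and those of PSMB9 and IFNGR1 in a fit of all 6 libraries (limma adjusted p 0.059 to 0.0647). Among the shRNA2 calls, MR1, IRF9, IFNAR2, JAK1 and TYK2 were lost without shRNA2 B (limma adjusted p 0.0809 to 0.261), MR1 and JAK1 also without control A, IFNAR2 without control B, and MR1 and IFNAR2 without shRNA2 A. MR1, JAK1 and TYK2 were also lost with no filter (limma adjusted p 0.0561 to 0.0592), JAK1 and TYK2 under quantile normalization (limma adjusted p 0.0516 to 0.0521) and MR1 with the length trend removed (limma adjusted p = 0.0593). CD1D, FCGRT, STAT2 and JAK2 passed in every alternative run for them. Among the immunoproteasome partners of PSMB10, PSMB9 fell with shRNA1, from 30.5 and 24.3 RPKM to 18.9 and 17.8 RPKM (-0.56, limma adjusted p = 0.0356, and -0.30 with the length trend removed). PSMB8 did not pass with shRNA1 (-0.15, limma adjusted p = 0.525). With shRNA2, PSMB9 was -0.25 (limma adjusted p = 0.415), and between the hairpins it was 0.30 (limma adjusted p = 0.332). The 3 immunoproteasome catalytic subunits summed to 250 and 178 RPKM in the control, 217 and 214 RPKM under shRNA1 and 262 and 208 RPKM under shRNA2. Their sum over that of the constitutive subunits PSMB5, PSMB6 and PSMB7 was 0.614 and 0.507 in the control, 0.649 and 0.673 under shRNA1 and 0.802 and 0.797 under shRNA2. The shRNA2 libraries had the highest ratios, and the sum of the constitutive subunits was lower there (327 and 261 RPKM) than in the control (407 and 351 RPKM).

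**Figure D4:**
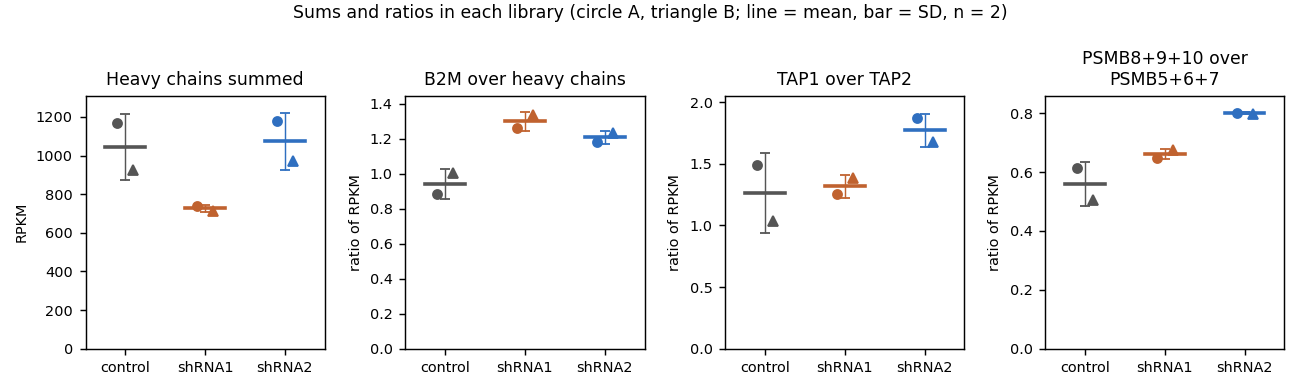
Summed heavy chain RPKM (HLA-B, HLA-C and HLA-E) and 3 ratios of RPKM in each library, with linear axes starting at 0. Circles are library A and triangles library B, lines are group means and bars are SD (n = 2). The heavy chain sum is lowest with shRNA1 (740.7 and 712 RPKM), and B2M over heavy chains is above the control in all 4 knockdown libraries.

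Of 7 tested genes of peptide loading and trimming, 2 rose with shRNA1 and 0 passed with shRNA2 (2 had an unadjusted limma p under 0.05). ERAP1, the aminopeptidase that trims peptides in the endoplasmic reticulum, rose from 12.1 and 15.1 RPKM to 20.0 and 21.4 RPKM under shRNA1 (0.60, limma adjusted p = 0.0298). UGGT1, the glucosyltransferase of glycoprotein quality control, also rose with shRNA1 (0.53, limma adjusted p = 0.0411, and 0.31 with the length trend removed). With shRNA2, ERAP1 was 0.42 (limma adjusted p = 0.107) and UGGT1 was 0.52 (limma adjusted p = 0.0678). Neither gene passed between the hairpins (limma adjusted p = 0.46 and 0.986). The chaperone CALR had 746 and 539 RPKM in the control and 932 and 962 RPKM under shRNA1 and did not pass (0.58, limma adjusted p = 0.0753). CALR passed in 5 of 15 alternatives, counting those with 1 control library left. Its difference was 0.81 without control A and 0.34 without control B. TAPBPL, a tapasin-related peptide editor, did not pass with either hairpin (0.24 and 0.33).

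Among 5 tested class I-like genes, FCGRT, the neonatal Fc receptor chain that pairs with B2M, rose with both hairpins. It had 4.90 and 3.18 RPKM in the control, 9.58 and 8.46 RPKM under shRNA1 and 15.9 and 10.99 RPKM under shRNA2 (1.09, limma adjusted p = 0.0141, and 1.62, limma adjusted p = 0.00729). CD1D, which presents lipids and also pairs with B2M, rose with shRNA2 (1.44, limma adjusted p = 0.0101), and so did MR1, which presents vitamin metabolites (0.58, limma adjusted p = 0.0395). With shRNA1, CD1D was 0.82 (limma adjusted p = 0.0854) and MR1 was 0.39 (limma adjusted p = 0.157). Neither gene passed between the hairpins (limma adjusted p = 0.211 and 0.531). MICB, a stress-induced ligand of the receptor NKG2D that does not pair with B2M, had 10.8 and 10.5 RPKM in the control, 5.84 and 5.61 RPKM under shRNA1 and 12.5 and 11.6 RPKM under shRNA2. It fell with shRNA1 (-0.83, limma adjusted p = 0.00792), and the difference between the hairpins passed (1.01, limma adjusted p = 0.00228).

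Of 15 tested transcription regulators, 5 rose with shRNA1 and 2 rose with shRNA2, and 0 fell with either (2 and 1 were lower at an unadjusted limma p under 0.05). NLRC5, the class I transactivator, had 9.63 and 12.2 RPKM in the control, 7.36 and 7.98 RPKM under shRNA1 and 8.77 and 11.2 RPKM under shRNA2. Its difference with shRNA1 was -0.48 and did not pass (limma adjusted p = 0.0691). NLRC5 passed in 5 of 15 alternatives, counting those with 1 control library left. Its difference was -0.64 without control A and -0.31 without control B. RFX5 (0.71, limma adjusted p = 0.0252) and NFYA (0.62, limma adjusted p = 0.0170), subunits of the complexes that bind class I promoters, rose with shRNA1. The other subunits of these complexes did not pass, with differences of -0.50 for RFXAP, -0.27 for RFXANK, -0.17 for NFYB and 0.19 for NFYC. RELA, an NF-kappaB subunit, rose with shRNA1 as well (0.68, limma adjusted p = 0.0196). With shRNA2, RFX5 (0.15), NFYA (0.24) and RELA (0.45, limma adjusted p = 0.0756) did not pass. Between the hairpins RFX5, NFYA and RELA did not pass either (limma adjusted p = 0.0502, 0.0827 and 0.311). IRF1, an activator of class I genes, did not pass with either hairpin (-0.36 and -0.28). With shRNA1 the IRF1 difference was -0.57 without control B and -0.15 without control A. STAT2, a signal transducer of type I interferon receptors, rose with shRNA1 (0.50, limma adjusted p = 0.0347) and with shRNA2 (0.94, limma adjusted p = 0.00822).

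IRF8, a myeloid interferon regulatory factor, rose with shRNA1 from 129 and 93.7 RPKM to 229 and 208 RPKM (0.99, limma adjusted p = 0.0118) and had 133 and 104 RPKM under shRNA2. IRF9, the DNA-binding partner of STAT2, rose with shRNA2 from 3.36 and 3.62 RPKM to 6.28 and 11.2 RPKM (1.16, limma adjusted p = 0.0237) and had 3.29 and 4.07 RPKM under shRNA1. Both genes differed between the hairpins, IRF8 by -0.89 (limma adjusted p = 0.0218) and IRF9 by 1.10 (limma adjusted p = 0.0235), and both of these calls were lost without shRNA1 A, shRNA1 B or shRNA2 B (limma adjusted p 0.0865 to 0.170). Without shRNA2 B, IRF9 did not pass against control (0.77, limma adjusted p = 0.0809; range over 15 alternatives 0.000433 to 0.0809).

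Of 7 interferon receptor and kinase genes, 4 rose with each hairpin. JAK2, a kinase of the interferon gamma receptor, rose with shRNA1 (1.08, limma adjusted p = 0.00508) and with shRNA2 (1.08, limma adjusted p = 0.00637). JAK1 and IFNAR2 also rose with both, IFNGR1 rose with shRNA1 (0.49) and TYK2 rose with shRNA2 (0.69). IFNGR1 with shRNA2 (0.13) and TYK2 with shRNA1 (0.13) did not pass. Neither of these 2 genes passed between the hairpins (limma adjusted p = 0.184 and 0.0589). All shares stand beside 9.99% of tested genes that rose with shRNA1 and 8.12% with shRNA2, and 8.58% and 7.61% that fell. At an unadjusted limma p under 0.05, 17.3% were lower with shRNA1 and 16.1% with shRNA2, and 16.7% were higher with shRNA2.

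**Figure D5:**
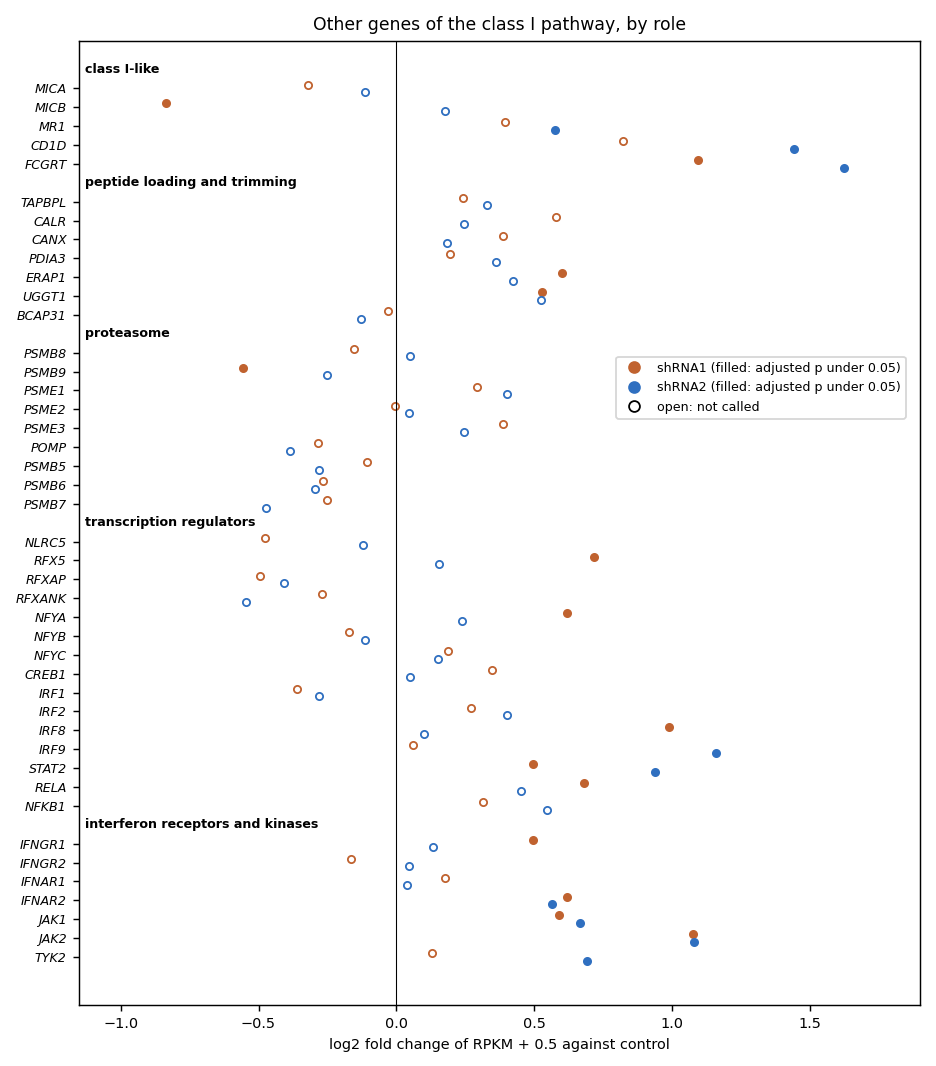
Log2 fold change of RPKM + 0.5 against control for 43 further genes of the class I pathway, grouped by role, with shRNA1 and shRNA2 as separate points. Filled points have a limma adjusted p under 0.05. STAT2, JAK1, JAK2, IFNAR2 and FCGRT are filled for both hairpins, and MICB and PSMB9 are the genes filled on the left.

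The interferon stimulated genes and the MHC class II genes were set beside the class I genes. Of 33 interferon stimulated genes tested with both hairpins, 8 rose with shRNA1 (median log2 fold change 0.27), beside 9.99% of all genes tested. With shRNA2, 14 rose (median 0.71), beside 8.12%. With either hairpin 0 fell, while 6 and 1 were lower at an unadjusted limma p under 0.05, beside 17.3% and 16.1% of all genes. Genes of this list that passed the filter only through knockdown libraries had to be higher there. Its counts and medians therefore support nothing by themselves. The class I genes, which interferons also raise, had medians of -0.08 and 0.16 in the same comparisons. Of 13 MHC class II genes 8 were in the tables. With shRNA1, 2 of 6 tested rose, beside 9.99% of all genes tested. With shRNA2, 0 of 3 tested passed (median -0.40). Between the hairpins 3 of 6 were lower with shRNA2, beside 6.1% of all genes tested. Class II genes that passed the filter only through the shRNA1 libraries had to differ. The class II counts with shRNA1 and between the hairpins therefore support nothing by themselves.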

How the data were processed

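RNA of OCI-AML2 cells was sequenced in 6 libraries, 2 in each of 3 groups. The submitters' processing notes name the build hg19 and, without role or order, DESeq 1.18.0, edgeR 3.8.6, HTSeq 0.6.1p2, TopHat2 2.0.11 and Trim Galore 0.4.0. The authors deposited RPKM for 13004 genes in 1 table per hairpin, together with, per the file headers, the log2 fold change of their comparison, the raw and adjusted p-value, the likelihood-ratio score and the mean log2 CPM. Not given in the sources used here were the gene filter, the strand setting and the handling of reads shared by paralogs. The control columns were identical in both tables, and 2 repeats were dropped, which left 13002 genes. Whole reads were recovered from the RPKM steps for all of these genes (within 0.01 of a whole number) and gave the depth, 18820271 to 20980538 reads in listed genes.

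Fits of 4 libraries set each hairpin against the control, and 1 fit of all 6 set the hairpins against each other. Genes averaging at least 1 RPKM over the libraries of a fit were tested with limma 3.58.1 (R 4.3.3, two-sided, variance trend) on log2(RPKM + 0.5), with Benjamini-Hochberg adjustment over all genes tested and a threshold of 0.05. The script was tested on simulated data. With 2 libraries a group an exact permutation test cannot pass the threshold. Alternatives covered the pseudocount, filter, scaling, variance model, gene length, replicate block, recovered reads (limma-voom), left-out libraries, the libraries in the fit, the promoter window and the motif spacing. Promoter windows are RefSeq's on GRCh38.p14, matched by symbol, and overlaps are from GENCODE.

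Members, gene lists and tests were chosen with earlier results of these data known. Named genes are TAZ, the measured class I genes, the further pathway genes called in any comparison, and PSMB8, PSMB9, TAPBPL, ERAP1, CALR, NLRC5 and IRF1 whether called or not, except that 2 genes are not reported here. Genes most alike were sought for called class I genes, which was HLA-E. Other lists are given as counts and medians.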

Additional observations from a re-analysis of the deposited data

Results flagged for a closer look

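Of the genes named, 4 differed between the hairpins by a direct test, beside 10.9% of all 10660 genes tested. Pathway genes were named if called in any comparison, this one included, so the count of 4 supports nothing by itself. TAZ, the targeted gene, was lower with shRNA2 than with shRNA1, with a difference of -1.001 on the log2 scale (limma adjusted p = 0.00801). It passed in 15 of 17 alternatives and was lost without shRNA1 A (limma adjusted p = 0.0739) or shRNA1 B (limma adjusted p = 0.084). MICB was higher with shRNA2 than with shRNA1 by 1.01 on the log2 scale (limma adjusted p = 0.00228), and passed in all 17 alternatives. IRF9 was higher with shRNA2 by 1.10 (limma adjusted p = 0.0235). IRF8 was lower with shRNA2, with a difference of -0.89 (limma adjusted p = 0.0218). IRF8 and IRF9 each passed in 14 of 17 alternatives, and both calls were lost without shRNA1 A, shRNA1 B or shRNA2 B. For IRF8 the adjusted p was then 0.168, 0.125 and 0.104, and for IRF9 it was 0.170, 0.107 and 0.0865. None of the 8 measured class I genes passed the same limma test between the hairpins, although 5 were higher with shRNA2 at an unadjusted p under 0.05, beside 11.9% of all genes tested.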

How the results depend on the processing

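Alternatives other than left-out libraries moved several counts. Genes called with shRNA1 (1971) became 3780 with the replicate block. Genes called with shRNA2 (1676) became 4170 with the replicate block, 2515 with the gene length trend removed and 2584 in a fit of all 6 libraries. Genes called between the hairpins (1160) became 2396 with the replicate block and 1801 with the length trend removed. Leaving out 1 library gave 461 to 4397 genes with shRNA1, 823 to 2010 with shRNA2 and 155 to 1622 between the hairpins, a lone library being assumed to vary like the others. Of the 8 class I genes, 1 was called with shRNA1, against 2 with the replicate block, voom or the length trend removed, and 0 to 3 without 1 library. With shRNA2, 0 became 1 under quantile normalization, 3 with the replicate block (B2M, TAP1 and PSMB10) and 2 with the length trend removed. Between the hairpins, 0 became 4 under quantile normalization, 1 with median centring, 5 with the replicate block (HLA-B, HLA-C, HLA-E, B2M and TAP1), 1 with voom, 4 with the length trend removed, 1 in a fit of the 4 knockdown libraries and 0 to 2 without 1 library. Whether letters pair libraries is not stated. Deviations of same-letter libraries correlated at 0.26 to 0.423 across genes, which with 2 letters does not show pairing. Searching GAAANNGAA in place of GAANNGAAA matched 5 members instead of 3, with TAP2 alone in both.

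The sign changed in the following cases, and no value with a changed sign was called. The ranges below also hold values that kept their sign, some of which passed. Under quantile normalization, B2M was 0.12 with shRNA1, and HLA-E was 0.053 with shRNA2. Median centring gave -0.0077 for HLA-B with shRNA2. Removing the length trend gave 0.22 for B2M and 0.016 for PSMB8 with shRNA1, and between the hairpins 0.028 for TAP2 and -0.036 for PSMB10. Without 1 library, values with shRNA1 ran from -0.13 to 0.024 for B2M, -0.15 to 0.096 for TAP1, -0.24 to 0.025 for TAP2, -0.13 to 0.072 for TAPBP, -0.0074 to 0.55 for PSMB10 and -0.38 to 0.070 for PSMB8. With shRNA2 they ran from -0.19 to 0.22 for HLA-B and -0.16 to 0.092 for HLA-E, and between the hairpins from -0.13 to 0.19 for PSMB10. The cause of these changes was not tested. Of 376 class I gene results under alternatives, 324 kept sign and side of the threshold. A comparison of protein sequences was not run.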

Other observations

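The class I pseudogene HLA-H, looked at after its values were seen, had 9 and 7 reads in control A and B, 12 and 88 reads in shRNA1 A and B, and 137 and 6 reads in shRNA2 A and B. In RPKM these are 0.331 and 0.227, 0.383 and 2.75, and 4.64 and 0.197. Libraries of the same hairpin thus differed more than the groups did. HLA-H resembles the heavy chain genes in sequence, and how the counting assigned reads between them was not tested.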
